A study of Caenorhabditis elegans with 2 samples.

Results

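The regions described here are the autosomal intronic ones among the regions that chromatin immunoprecipitation with sequencing (ChIP-seq) of eGFP-tagged NHR-237 returned in C. elegans larvae. They were chosen by position alone. A region of the pooled list belonged to the set when it lay on 1 of the 5 autosomes, when its summit (the position of highest signal that the authors gave) was more than 1000 bp from the 5′ end of every protein-coding gene, and when the summit lay inside a protein-coding gene but in none of the exons of such genes. These conditions held for 1249 of the 6542 pooled regions, which is 19.1%, and for 23.3% of the 5363 autosomal regions. Of all autosomal bases, 24.1% meet the same conditions (19.9 of 82.6 Mb), so intronic regions were listed about as often as the space open to them. They were scarcer at high signal: 30 of the 276 autosomal regions on the reproducible list were intronic, or 10.9%. At the edge of the rule, an intronic region of dhc-4 just outside, 999 bp from a gene start, had a signal of 28.5, and a region of F56A8.3 just inside, at 1003 bp, had 28.4.

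NHR-237 is a member of the nuclear hormone receptor family, which is greatly expanded in nematodes. Receptors of this family bind DNA through zinc fingers, many of them at short core sequences related to AGGTCA, and many act with a bound ligand. Introns of C. elegans carry enhancers and internal promoters, and many hold small noncoding genes nested within the host, among them genes for small nucleolar RNAs (snoRNAs, which guide chemical modification of ribosomal and other RNAs), spliceosomal RNAs (snRNAs) and tRNAs. Some of these genes have promoters of their own.

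By the labels, all samples were whole L2 larvae, males and females pooled, of strain OP228, genotype unc-119(ed3) III; wgIs228. The strain carries the eGFP-tagged nhr-237 transgene as an insertion (wgIs228) in an unc-119 mutant background. The 2 biological replicates formed 1 group, with a size range of 150 to 350 bp, and no other genotype, stage or treatment was compared. The transgene's tissue of expression, the age in hours and the kind of control sample were not given in the labels. Whole animals were used, so a region present in few cells and one weakly occupied in many cannot be told apart. Each replicate's own list held 30000 regions and the pooled list 6542. The reproducible list held 350 regions kept by the irreproducible discovery rate (IDR), which compares ranks between replicates, and it is made up of the 350 highest of the pooled list. Read totals were not analysed here, and the depth behind a signal is unknown. Signal is the authors' value, on a scale of its own in each list, and carries no SD. Intervals below are exact 95% binomial intervals and cover counting error only.

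The windows of 201 bp centred on the summits of 5 high intronic regions are printed here as examples. The sequences are from the RefSeq WBcel235 (ce11) assembly, plus strand, and capitals mark matches to 10 short motifs that are spelled out further on. Those of Y111B2A.12, pqn-41 and zfp-1 are among the 4 highest regions. The window of dhc-4, also among these 4, is not printed and holds no match to any of the motifs. All 5 printed windows hold a match, so they do not show how common the motifs are. The scc-2 region lies beside an internal transcript start, and the C08D8.1 region beside a snoRNA gene.
Y111B2A.12, chrIII:12612517-12612717: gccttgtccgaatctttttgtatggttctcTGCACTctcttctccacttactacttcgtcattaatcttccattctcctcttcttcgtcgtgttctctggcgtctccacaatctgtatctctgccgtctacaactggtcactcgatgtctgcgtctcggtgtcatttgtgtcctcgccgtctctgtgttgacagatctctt
pqn-41, chrIII:1925213-1925413: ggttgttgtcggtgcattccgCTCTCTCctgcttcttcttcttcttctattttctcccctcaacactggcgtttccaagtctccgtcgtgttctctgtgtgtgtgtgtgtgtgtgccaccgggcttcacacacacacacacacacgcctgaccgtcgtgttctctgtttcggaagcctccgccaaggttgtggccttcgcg
zfp-1, chrIII:8802026-8802226: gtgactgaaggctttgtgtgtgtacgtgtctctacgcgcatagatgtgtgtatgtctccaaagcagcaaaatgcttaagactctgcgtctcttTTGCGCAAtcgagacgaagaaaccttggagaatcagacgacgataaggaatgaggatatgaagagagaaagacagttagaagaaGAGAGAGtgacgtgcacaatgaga
scc-2, chrII:255256-255456: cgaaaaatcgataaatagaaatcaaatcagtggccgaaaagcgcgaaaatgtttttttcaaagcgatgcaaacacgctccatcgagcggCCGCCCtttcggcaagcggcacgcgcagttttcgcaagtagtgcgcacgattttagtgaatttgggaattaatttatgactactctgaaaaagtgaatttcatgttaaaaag
C08D8.1, chrV:8349000-8349200: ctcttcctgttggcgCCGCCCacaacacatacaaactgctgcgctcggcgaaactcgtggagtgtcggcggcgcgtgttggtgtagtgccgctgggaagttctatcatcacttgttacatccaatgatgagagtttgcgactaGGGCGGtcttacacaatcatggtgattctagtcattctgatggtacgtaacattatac
The GC content of these windows was 47.8% at Y111B2A.12, 55.2% at pqn-41, 44.8% at zfp-1, 41.8% at scc-2 and 50.7% at C08D8.1. The pqn-41 window holds 1 match to the GAGA repeat on the minus strand. The zfp-1 window holds 1 GAGA repeat on the plus strand and 1 TTGCGCAA.

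Most intronic regions were weak. Their median signal was 21.4 (quartiles 19.9 and 24.1; lowest 18.8, highest 128), and 78.9% were under 25. Over all 6542 pooled regions the median was 21.9 (quartiles 20.1 and 25.5), the maximum 507, and 72.8% were under 25. On the reproducible list were 30 intronic regions, 2.40% (1.63 to 3.41%), against 5.35% of all pooled regions. Of autosomal promoter regions, within 1000 bp of a gene start, 20.2% were on it where starts of both strands were that near (16.6 to 24.1%) and 5.87% where starts were on a single strand (4.85 to 7.02%). The share was 2.97% in autosomal intergenic regions away from starts (2.05 to 4.14%), 1.10% in exonic ones (0.442 to 2.24%) and 4.23% in intronic regions of the X chromosome (12 of 284, 2.20 to 7.26%). The interval of the autosomal introns lies below those of both promoter classes and overlaps that of the intergenic, exonic and X intronic regions.

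The intronic share rose down the ranking. In the pooled list, introns held 8 of the 69 autosomal regions of ranks 1 to 100 (11.6%, 5.14 to 21.6%) and 22 of 207 at ranks 101 to 350 (10.6%, 6.78 to 15.6%). They held 83 of 530 at ranks 351 to 1000 (15.7%), 185 of 823 at ranks 1001 to 2000 (22.5%) and 396 of 1650 at ranks 2001 to 4000 (24.0%). At ranks 4001 to 6542 they held 555 of 2084 (26.6%, 24.7 to 28.6%). The lowest ranks thus had an intronic share at or just above the 24.1% of bases, and ranks 1 to 1000 lay below it. Each replicate's own list went the same way. In replicate 1 the share went from 11.8% at ranks 1 to 100 through 12.6 and 17.5% to 24.6% at ranks 4001 to 6542. In replicate 2 it was 10.4% at ranks 1 to 100, then 18.3 and 22.5%, and 24.1% at ranks 4001 to 6542, so the rise came earlier in its ranking.

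**Figure D1:**
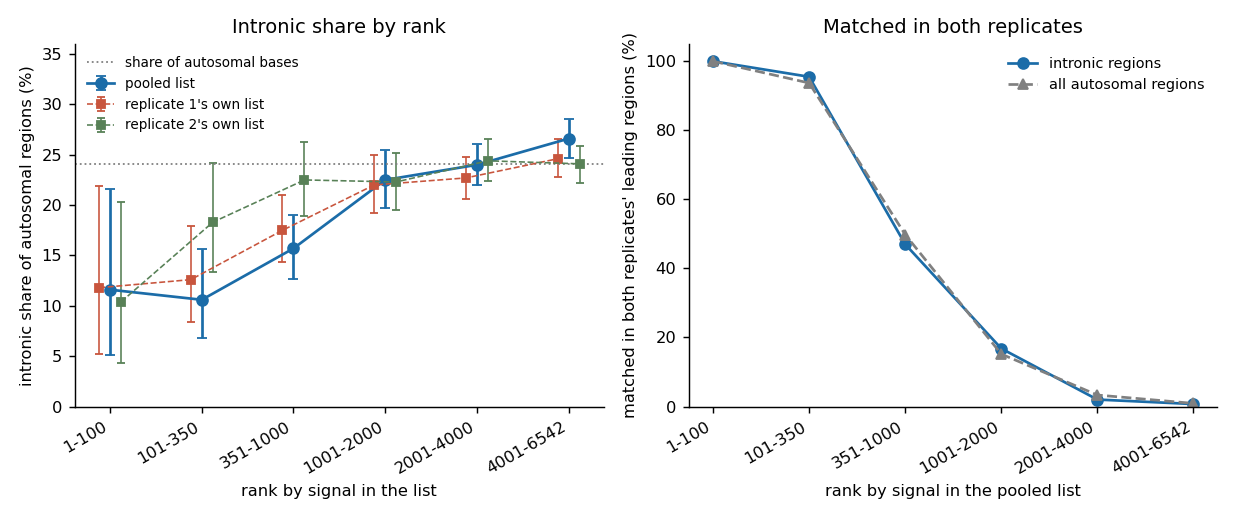
Left, intronic share (%) of autosomal regions by rank of signal, in the pooled list (circles) and in each replicate's own list (squares), with exact 95% binomial intervals; the dotted line is the 24.1% of autosomal bases that satisfy the rule. Right, percent of pooled regions with a match among the 6542 highest regions of both replicates, for intronic and for all autosomal regions, by pooled rank. The pooled share goes from 11.6 to 26.6% while the matched share of intronic regions drops from 100% to 0.721%. That of all autosomal regions drops from 100% to 0.912%.

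How far the single libraries held these regions was read from their own lists. A summit within 150 bp was found among the 6542 highest regions of replicate 1 for 48.4% of the intronic regions and of replicate 2 for 29.9%. In both at once it was found for 111, or 8.89% (7.37 to 10.6%), against 13.9% of all pooled regions. In single-strand promoter regions that share was 15.3%, in divergent ones 32.7%, in intergenic ones 10.9% and in exonic ones 7.82%. It was 13% in intronic regions of the X chromosome (9.34 to 17.5%). The autosomal intronic interval thus lies below those of both promoter classes and overlaps the others. With all 30000 regions per list, 86.5% had a match in replicate 1, 61.8% in replicate 2 and 50% in both. Matches in both followed the rank: all 8 of ranks 1 to 100, 21 of 22 at ranks 101 to 350, 39 of 83 at ranks 351 to 1000 (47%), 31 of 185 at ranks 1001 to 2000 (16.8%), 8 of 396 at ranks 2001 to 4000 (2.02%) and 4 of 555 at ranks 4001 to 6542 (0.721%). Over all autosomal regions the same ranks had 100, 93.7, 49.8, 15.2, 3.33 and 0.912%, so the trend was not particular to introns. Pooled signal comes from the same libraries, so part of this trend is built in. Over the 625 regions matched in both full lists, the signals of the replicates had a Spearman's rho of −0.03, as against 0.48 for divergent promoter regions (n = 298) and 0.20 for single-strand ones (n = 1011). It was 0.01 for intergenic regions away from starts (n = 557), −0.07 for exonic ones (n = 301) and 0.22 for intronic regions of the X chromosome (n = 139), so a value near 0 was common to the autosomal classes away from starts. These points share libraries and the choice by pooled signal, and the values are descriptions.

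The 30 regions on the reproducible list lay in 25 host genes and had pooled signals from 42.8 to 128, with a median of 61.4. All 30 had a match in each replicate's full list. The reproducible list was itself made by comparing ranks between replicates, so this is largely built in for these 30. In replicate 1 their median rank was 184 and 27 were among its first 350 regions, while in replicate 2 the median rank was 295.5 and 17 were among the first 350. Both held 16 of them that high. The highest, in intron 4 of 7 of Y111B2A.12, had a pooled signal of 128 and ranked 30 in the pool. It had 68.1 in replicate 1 (rank 51) and 58.6 in replicate 2 (rank 22), and no noncoding gene was annotated within 250 bp. The lowest, in intron 9 of C35B1.2 and named here because it closes the range, had 42.8 in the pool, 24.7 in replicate 1 (rank 530) and 7.98 in replicate 2 (rank 10772). Ranks could differ widely between the replicates. One such region lay in spop-1, which encodes a relative of the ubiquitin ligase adaptor SPOP. That region (chrIII:10096526-10096901) had a pooled signal of 66.5, with 59.9 in replicate 1 (rank 67) and 13.4 in replicate 2 (rank 1449). The reverse was seen in pqn-41, where the region at chrIII:1921266-1921641 with a pooled signal of 81.4 had 25.7 in replicate 1 (rank 472) and 57.5 in replicate 2 (rank 23).

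**Figure D2:**
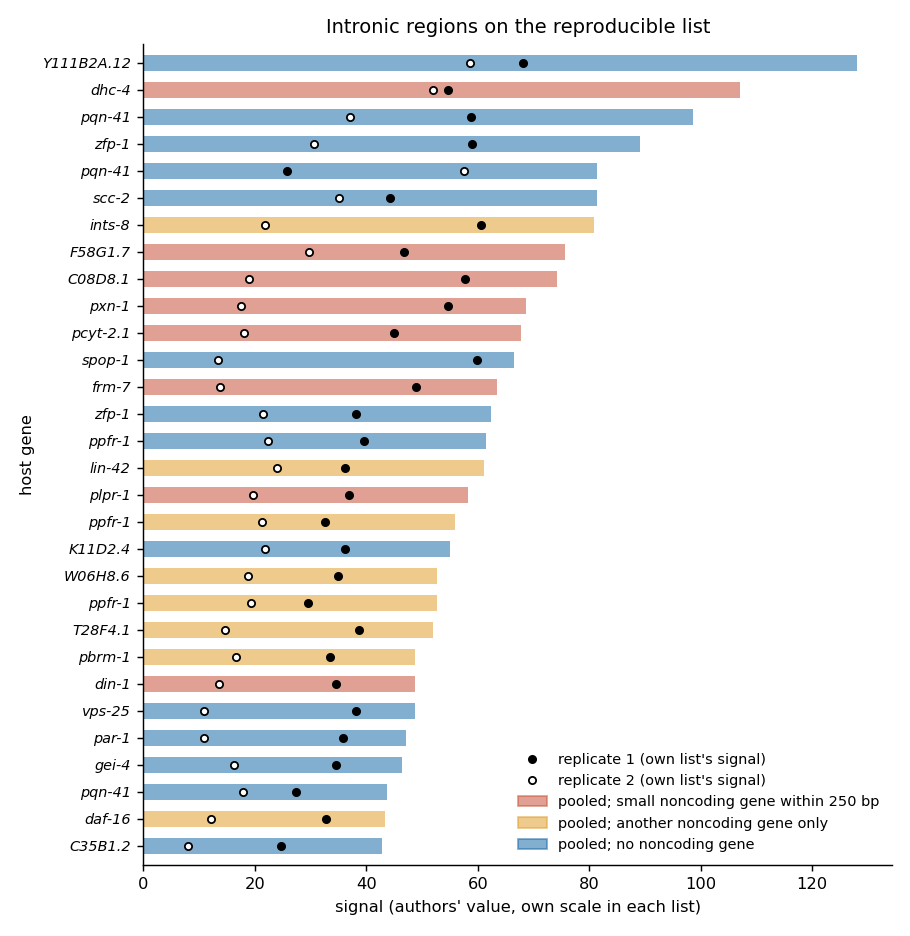
Signal of the 30 intronic regions on the reproducible list, by host gene; bars are the pooled value, filled circles replicate 1 and open circles replicate 2, each on its own list's scale, with no error because each list gives 1 value per region. Bar colour gives the noncoding genes within 250 bp, and the 8 regions beside a small noncoding gene are spread from 48.8 to 107.

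Several of these regions shared a host. The gene pqn-41, which encodes a glutamine- and asparagine-rich protein known for its part in linker cell death, has 5 intronic regions at signals of 27 to 98.7. In its intron 15 of 23, which is 7770 bp long, lay 4 of them, and 3 of these were on the reproducible list. The highest, at 98.7, had 58.7 in replicate 1 (rank 71) and 37.1 in replicate 2 (rank 43). The other two on that list had pooled signals of 81.4 and 43.8, the latter with 27.4 in replicate 1 and 17.8 in replicate 2. The fourth in that intron, at 41.4, ranked 364 in the pool and so just missed the list. It had 33.7 in replicate 1 and 9.24 in replicate 2. The nearest protein-coding gene starts were 15496 to 18324 bp from the 4 summits, and internal transcript starts of pqn-41 were 1109 to 4029 bp away.

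The gene zfp-1, which encodes a PHD zinc finger protein homologous to AF10, has 4 intronic regions. The one in intron 10 of 14 had a pooled signal of 89.1, with 59.0 in replicate 1 (rank 69) and 30.7 in replicate 2 (rank 76), and lay 693 bp upstream of an internal transcript start. The one in intron 5 had 62.4, with 38.1 in replicate 1 and 21.4 in replicate 2. Its other two had 32.5 and 20.8. The gene ppfr-1, which encodes a regulatory subunit of protein phosphatase 4, has 4 as well, and 3 of them were on the reproducible list. These had 61.5 in intron 7 of 25 (chrI:9381164-9381539) and 55.9 and 52.6 in intron 6. The replicate signals of these 3 were 39.6, 32.6 and 29.6 in replicate 1 and 22.4, 21.3 and 19.4 in replicate 2. The pair in intron 6 overlap, since every region is 376 bp wide, and may be read as 1 place.

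**Figure D3:**
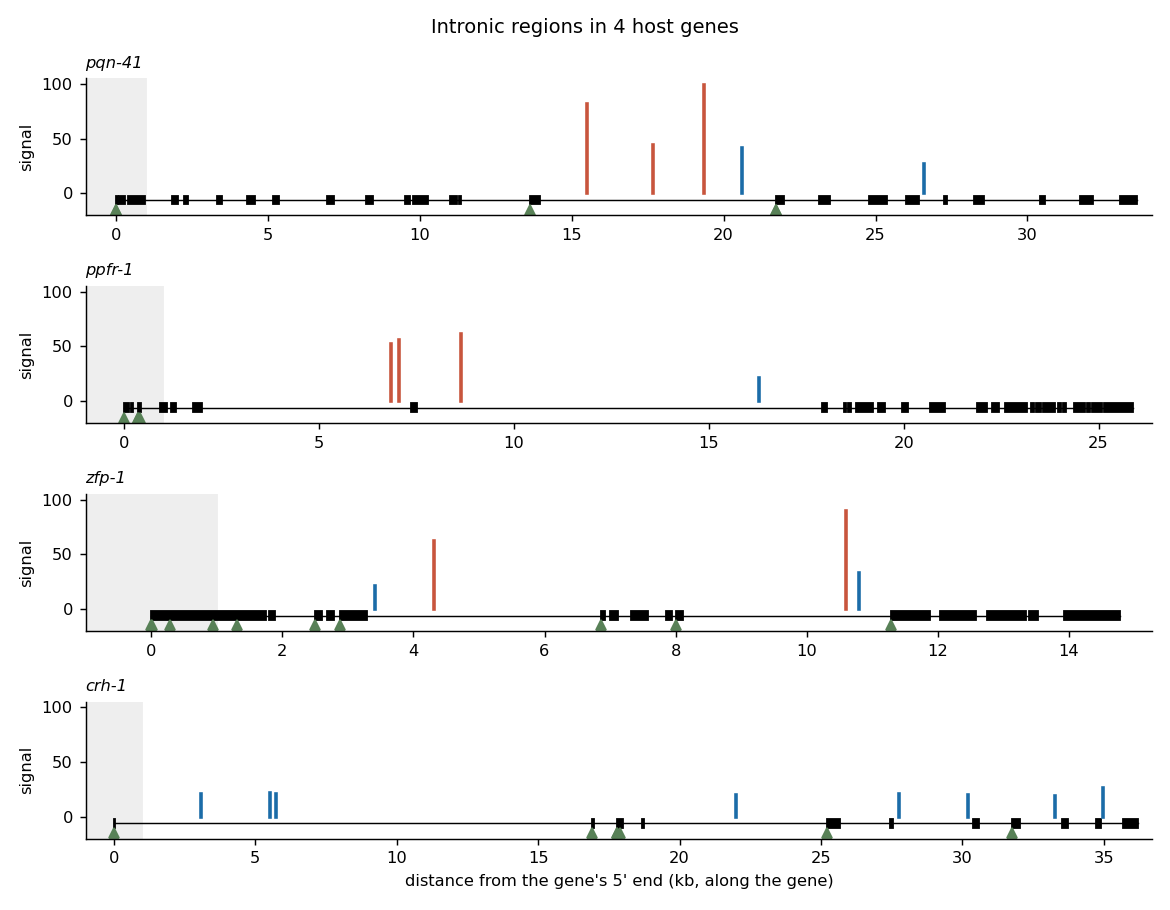
Intronic regions in 4 host genes along the gene, in kb from its 5′ end; the height of a line is the pooled signal, red for regions on the reproducible list and blue for the others. Black boxes are exons of all transcripts merged, green triangles transcript starts, and grey the 1000 bp beside the gene's start that the rule leaves out. In pqn-41 4 regions stand in 1 intron of 7770 bp, while the 8 of crh-1 are spread along the gene at signals of 18.9 to 26.2.

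Small noncoding genes nested in introns marked a share of the regions, and a larger share of the high ones. A tRNA, snoRNA, snRNA or miRNA gene lay within 250 bp of 50 summits, 4% (2.99 to 5.24%), against 3.15% of all pooled regions. Only 0.677% of the bases that satisfy the rule are that near to one. In intronic regions of the X chromosome the share was 6.69% (19 of 284, 4.08 to 10.3%), and in the other autosomal classes 0.939 to 3.18%. On the reproducible list 8 of the 30 had such a gene, 26.7% (12.3 to 45.9%), and off it 42 of 1219 did, 3.45% (2.49 to 4.63%). By comparison, 7.77% of the 206 autosomal promoter regions on the reproducible list and 21.2% of its 33 autosomal intergenic ones away from starts had one. By pooled rank the share was 25% at ranks 1 to 100, 27.3% at ranks 101 to 350, 12% at ranks 351 to 1000, and 2.53 to 3.78% below that.

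The snoRNA genes made up most of these. They lay within 250 bp of 26 summits, 2.08% (1.36 to 3.04%) against 0.241% of the bases, and 6 of the 30 on the reproducible list, 20% (7.71 to 38.6%). On that list they were also near 4 of the 33 autosomal intergenic regions, 5 of the 206 autosomal promoter regions and 15 of all 350. Among 93 autosomal snoRNA genes whose ends both satisfy the rule, 22 had a region that near, or 23.7%. The summits sat close to the gene's 5′ end, at a median of −5 bp with quartiles of −56.2 and 63.8 (negative is upstream). Of the 26, 14 were upstream of the snoRNA gene, 8 inside it and 4 beyond it, and the median snoRNA gene was 99 bp long. In 18 the snoRNA gene lay on the strand of its host, as do 77 of the 93 nested genes. All 26 were in different hosts. Matched among the 6542 highest of both replicates were 11 of the 26, beside 8.89% of all intronic regions.

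The highest of them was in intron 7 of 10 of C08D8.1, 303 bp long, with its summit 8 bp from the snoRNA gene C08D8.3. It had a pooled signal of 74.2, with 57.7 in replicate 1 (rank 72) and 18.9 in replicate 2 (rank 306). In pxn-1, which encodes a peroxidasin, a summit 41 bp from ZK994.7 (chrV:8500350-8500725) had 68.7 in the pool, 54.7 in replicate 1 and 17.5 in replicate 2. In pcyt-2.1, a summit 60 bp from Y37E3.20 had 67.8, with 44.9 and 18 in replicates 1 and 2. In frm-7, which encodes a FERM domain protein, a summit inside C51F7.4 had 63.5, with 49 and 13.7. All 4 were higher in replicate 1, whose own list had a median signal of 14.1 over its matches to intronic regions, against 9.14 in replicate 2.

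Both snRNA regions on the reproducible list were high. In intron 31 of 34 of dhc-4, a dynein heavy chain gene, a summit 34 bp from the snRNA gene R07E5.16 had a pooled signal of 107, with 54.7 in replicate 1 (rank 77) and 52 in replicate 2 (rank 26). In F58G1.7 (chrII:12944800-12945175), a summit 21 bp from a gene annotated as an snRNA under the name sup-6 had 75.6, with 46.7 in replicate 1 and 29.8 in replicate 2. In all, snRNA genes were near 5 summits, and 4 of the 5 were upstream of the gene. Matched in both replicates' highest 6542 were 4 of the 5, beside 8.89% of all intronic regions. The other three were weaker, and the named ones, at the spliced leader genes sls-2.18 in glr-2 and sls-2.14 in W09D6.5, had 32.6 and 27.2.

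No region near a tRNA or miRNA gene was on the reproducible list, which held 2.4% of all intronic regions. Of the regions, 13 lay near tRNA genes, at signals of 19.8 to 32.8 with a median of 21.6. Matched in both replicates' highest 6542 was 1 of the 13, beside 8.89% of all intronic and 13.9% of all pooled regions. The highest, in K11H12.8, had 32.8, with 19.4 in replicate 1 and 11.9 in replicate 2. Of 126 nested tRNA genes, 11.1% had a region within 250 bp, as against 23.7% of nested snoRNA genes and 13.2% of 38 nested snRNA genes. For miRNA genes the count was 6 regions, the highest at 41 in nurf-1 (21.3 in replicate 1 and 19.6 in replicate 2), 138 bp from cel-mir-5595. None of the 30 lay near a tRNA or a miRNA gene, for which the exact interval reaches 11.6%.

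Other noncoding annotation was near further regions. Genes annotated as ncRNA, a broad class of mostly uncharacterised transcripts, were within 250 bp of 12 of the 30 on the reproducible list (40%, 22.7 to 59.4%), of 6.23% of the others and of 3.70% of the bases. Some of these lay beside a small noncoding gene too. Without such a gene, 8 of the 30 had only another noncoding gene, at a median signal of 52.7, and 14 had none at all, at a median of 62. The highest of the former, in ints-8, a subunit gene of the Integrator complex that processes snRNAs, was beside rpr-1, which encodes the RNA of RNase P. It lay at chrI:13463785-13464160 and had 80.9 in the pool, 60.6 in replicate 1 (rank 64) and 21.8 in replicate 2 (rank 177). In lin-42, the Period homolog that times larval development, a region with 61.2 in the pool, 36.2 in replicate 1 and 23.9 in replicate 2 lay near F47F6.13 and F47F6.15. piRNA genes were near 80 regions, 6.41% against 4.16% of the bases. None of these was on the reproducible list, which held 2.4% of all intronic regions.

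**Figure D4:**
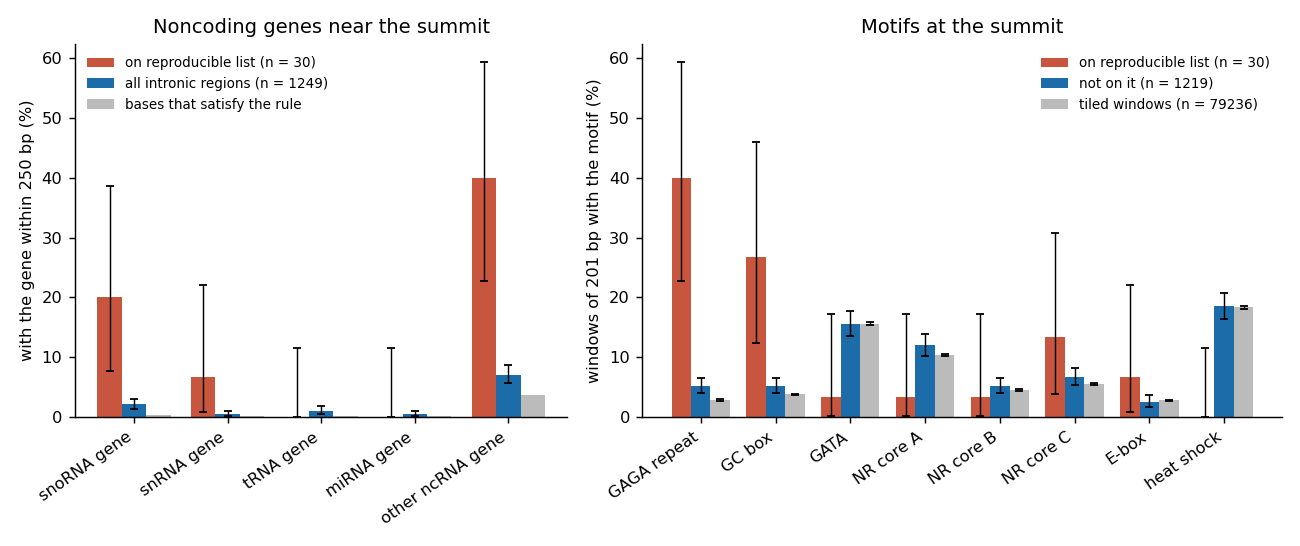
Left, percent of regions with a noncoding gene within 250 bp of the summit, for the 30 on the reproducible list and all 1249 intronic regions, beside the percent of rule-satisfying bases that near. Right, percent of 201-bp windows with a motif, for the 30, the other 1219 and 79236 tiled windows; bars have exact 95% binomial intervals, absent for the bases. NR core A is AGTTCA, NR core B is AGGTCA and NR core C is AGTGCA. At 40% of the 30, ncRNA genes and the GAGA repeat stand highest.

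Introns also hold the starts of shorter transcripts. An annotated transcript start of a protein-coding gene lay within 250 bp of 62 summits, 4.96% (3.83 to 6.32%), where 4.02% of the rule-satisfying bases are that near, so the interval reaches the base share. Of the 62, 50 were upstream of the start, 80.6%, and 70.1% of the eligible bases that near are upstream, because the first exon lies on the other side and exons are left out. Their median signal was 22.1 and 3 were on the reproducible list. The highest was in scc-2, which encodes the cohesin loader, in an intron 1 of 8367 bp and 160 bp upstream of a start. It had 81.4 in the pool, 44.3 in replicate 1 (rank 138) and 35.1 in replicate 2 (rank 52). A summit just upstream of a start in din-1, a corepressor of the receptor DAF-12, had 48.8, with 34.5 and 13.5 in replicates 1 and 2, and a snoRNA gene, F07A11.15, overlaps it. A summit 13 bp upstream of one in vps-25, an ESCRT-II subunit gene, had 48.7, with 38.2 and 10.8. Off the list, zip-2 and drap-1 had the highest, at 36.6 and 35.7.

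The first intron of the host held 184 summits, 14.7% (12.8 to 16.8%), against 12.1% of the bases, and 7 of the 30 on the reproducible list (23.3%, 9.93 to 42.3%). The median intron with a region was 1052 bp long (quartiles 506 and 2956), close to the 1169 bp of the median rule-satisfying base. Introns of the 30 were longer, with a median of 3747 bp, while those of the 50 beside small noncoding genes had a median of 539 bp. Introns of up to 500 bp held 310 regions and 5 on the reproducible list, and all 5 of these were beside a small noncoding gene. Introns over 5000 bp held 177 regions, 12 on the reproducible list and none of those 12 beside one. That list held 2.4% of all intronic regions. Regions that share an intron, as in pqn-41 and ppfr-1, were counted separately in these counts and medians.

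The reproducible share did not follow the distance from gene starts in 1 direction. Among intronic regions 2001 to 5000 bp from the nearest protein-coding start, 7 of 536 were on the reproducible list (1.31%), and among those more than 5000 bp away 15 of 363 were (4.13%), in 11 hosts. Between 1001 and 1500 bp it was 4 of 196 (2.04%) and between 1501 and 2000 bp 4 of 154 (2.60%). Nearer than the rule allows, at 501 to 1000 bp and so outside the set, 1 of 269 intronic regions was on it (0.372%). The median signal was 21 to 21.8 in all 5 distance classes. Hosts with several regions, such as pqn-41 and ppfr-1 with 3 each, weigh on these counts.

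Base composition set the 30 apart from the others. In 201-bp windows at the summit, the median GC content was 51.7% for the 30 (quartiles 48.4 and 56.0), 33.8% for the other 1219 and 32.3% for 79236 windows tiled over the rule-satisfying bases. All 30 were above 37.8%, the upper quartile of the tiled windows, and ranged from 38.8 to 60.7%; 28.1% of the other intronic regions were above it. On the reproducible list, 72.3% of the 206 autosomal promoter regions and 87.9% of the 33 intergenic ones passed that level, so high GC content was not particular to introns. By pooled rank the median for introns went from 52.7% at ranks 1 to 100 and 51% at ranks 101 to 350 to 37.3% at ranks 351 to 1000 and 32.8% at ranks 4001 to 6542. For all autosomal regions the same ranks had 44.3, 43.3, 37.8 and 34.3%. Bases in lower case in the assembly, which mark repeats and low-complexity sequence, took a median 9.70% of the window in the 30, 45.8% in the others and 56.2% in the tiled windows. On the reproducible list the median was 33.8% in promoter regions, 17.9% in intergenic ones and 22.9% over all 350. The part of GC content and repeats in the signal was not tested.

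**Figure D5:**
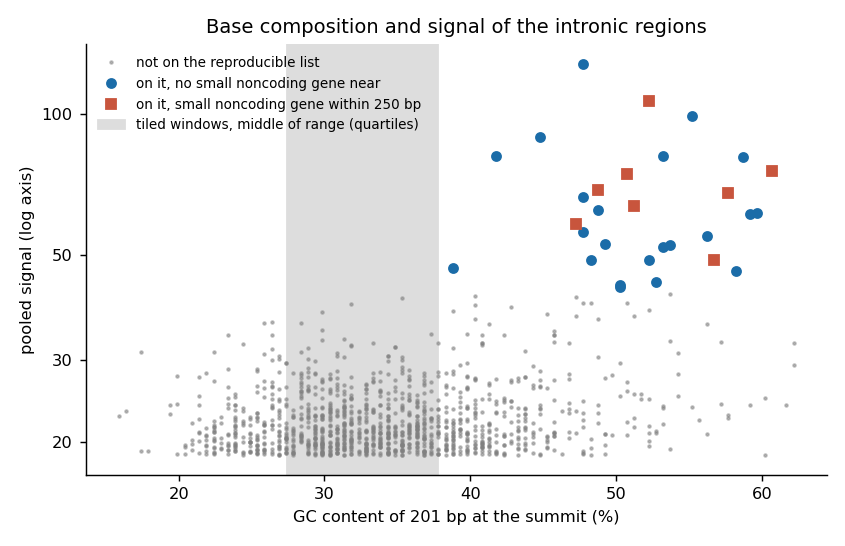
Pooled signal (log axis) against GC content (%) of the 201 bp at the summit for all 1249 intronic regions; blue circles and red squares are the 30 on the reproducible list, without and with a small noncoding gene within 250 bp, and grey points the other 1219. The grey band is the interquartile range of tiled windows, with its upper edge at 37.8%, and the 30 lie to the right of it, from 38.8 to 60.7%.

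Motifs were sought on both strands of the same windows. The 10 were GAGAGAG (the GAGA repeat), CCGCCC (a GC box), TGATAA (the GATA factor site), AGTTCA (a single nuclear receptor core), AGGTCA (another) and AGTGCA (a further one), CACGTG (an E-box), GAANNTTC (the core of the heat shock element), TTGCGCAA (a palindrome bound by C/EBP-type factors) and GGTTCGA (the core of the tRNA B box). None contains another. The GAGA repeat was in 12 of the 30, or 40%, in 5.17% of the other intronic windows, in 2.83% of tiled windows and in 6.11% of all pooled regions. It was in 42.4% of the 33 intergenic regions on the reproducible list and in 13.6% of its 206 promoter regions. The GC box was in 8 of the 30 (26.7%), in 5.17% of the others and in 3.76% of tiled windows. On the reproducible list it was in 12.1% of the promoter regions and 15.2% of the intergenic ones, and in 13.1% of all 350. Motif shares were not corrected for the GC content given above. The 10 motifs were themselves chosen with earlier results of these data known. Their shares among the 30 are therefore descriptions and not independent findings.

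The nuclear receptor cores did not stand out at this number of windows. AGTTCA was in 3.33% of the 30, 12% of the others, 10.3% of tiled windows and 11.4% of all pooled regions. AGGTCA was in 3.33, 5.09, 4.44 and 4.75% of the same 4 groups. AGTGCA was in 13.3, 6.64, 5.43 and 7.95%, and its 4 matches among the 30 include that of Y111B2A.12. TGATAA was in 1 of the 30 (3.33%) and in 15.5% of both the others and the tiled windows, and the heat shock core was in none of the 30 and in 18.5 and 18.3%; both are AT-rich. The E-box was in 6.67% of the 30 and 2.74% of tiled windows, TTGCGCAA in 3.33 and 0.422%, and the B box core in 3.33 and 1.36%. A further string, GAGACGCA, was chosen after the 10 highest windows off the first autosome had been read, 3 of which hold it. It was in 2 of the remaining 20 windows on the reproducible list, in 2.87% of the other intronic windows, in 4.08% of all pooled regions and in 1.34% of tiled windows. It was in 15.5% of the promoter regions and 30.3% of the intergenic regions on the reproducible list.

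Hosts were many, and mostly had a single region. The 1249 regions lay in 965 of the 11252 autosomal protein-coding genes that have bases satisfying the rule (8.58%). Of these hosts 768 had 1 region, 136 had 2 and 61 had 3 or more, and 21 regions lay in introns of 2 overlapping genes. Hosts had a median 4078 rule-satisfying bases and the remaining genes 533. The 1125 genes with most of them hold 53.6% of the bases and took 55.2% of the regions' host assignments, so regions were spread nearly in proportion to intron length. Of those genes 39.3% had a region, against 5.16% of the rest. By chromosome the density was 61.3 per Mb on chromosome I, 65.4 on II, 66.9 on III, 64.6 on IV and 56.6 on V. The regions on the reproducible list numbered 10 on I, 5 on II, 9 on III, 1 on IV and 5 on V.

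The gene with the most regions was crh-1, which encodes the CREB transcription factor. Its 8 had signals of 18.9 to 26.2 over 32.8 kb of eligible sequence, and the highest, in intron 10, had 11 in replicate 1 and 12.9 in replicate 2. The gene daf-5, a Ski-related regulator of dauer entry, had 7 at 19.1 to 24.3 in 15.6 kb. The polarity kinase gene par-1 had 6 at 19.6 to 47.1, of which the highest, in its intron 1, was on the reproducible list with 35.8 in replicate 1 (rank 212) and 10.8 in replicate 2 (rank 3799). W05B5.1 had 6 at 19.3 to 28.8, and pqn-41 had the 5 given above. It is 1 of 9 hosts with 5 regions, taken first for its highest signal. In crh-1, daf-5 and W05B5.1, none was on the reproducible list, which held 2.4% of all intronic regions. Other hosts with several regions held high ones, at up to 61.2 in lin-42 with 5 regions and up to 128 in Y111B2A.12 with 4.

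Groups of host genes were compared by their lists, chosen from gene names. Genes of muscle structure had a region in 9 of 28 genes with eligible bases (32.1%), adhesion and axon guidance genes in 18 of 60 (30%), synapse and vesicle release genes in 9 of 32 (28.1%), and ion channel genes in 35 of 184 (19%). These are long genes, and per Mb of eligible bases they had 73.9, 75.3, 71.1 and 71.4 regions, beside 63.1 over all genes counted the same way. None of the 10, 35, 14 and 41 regions of these lists was on the reproducible list, which held 2.4% of all intronic regions. The highest of each were at 29.1 in unc-15 (paramyosin), 27.7 in ptp-3 (a receptor tyrosine phosphatase), 29.7 in nrx-1 (neurexin) and 36.6 in inx-11, an innexin gene whose region lay 27 bp from the snoRNA gene W04D2.7. The glutamate receptor gene glr-4 followed at 35.9, with 27.6 in replicate 1 and 9.94 in replicate 2. Of the regions just named, that of unc-15 had no match in replicate 2 and that of nrx-1 none in replicate 1.

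Transcription and chromatin factors other than homeobox and receptor genes had a region in 13 of 110 genes (11.8%), at 96.3 per Mb from 31 regions. Few hosts held most of the 31, with 8 in crh-1 and 4 each in zfp-1, hlh-30 and fkh-7. In this list 2 hosts, zfp-1 and daf-16, had regions on the reproducible list. The region in intron 8 of daf-16, the FOXO factor of insulin signalling, had 43.3 in the pool, 32.8 in replicate 1 (rank 262) and 12.2 in replicate 2 (rank 2212). The region in intron 1 of skn-1, the Nrf-type factor of stress responses, had 39.5, with 29.3 and 13.7 in replicates 1 and 2. Kinase, GTPase regulator and second messenger genes had one in 20 of 86 (23.3%), at 63.1 per Mb, led by par-1 and by kin-1, the catalytic subunit of protein kinase A, at 38.3. The kin-1 region had 31.2 in replicate 1 and no match in replicate 2. Chaperone genes had one in 7 of 44 (15.9%), at 127 per Mb from 10 regions. The highest were 33.9 in cct-8, 25.7 in dnj-29, 24.9 in cct-8 again and 24.7 in cct-3. The cct genes encode subunits of the CCT chaperonin. Splicing and RNA-binding genes had one in 8 of 45 (17.8%), led by msi-1 (Musashi) at 27.4.

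Nuclear receptor genes, the family of NHR-237 itself, had an intronic region in 14 of 223 genes (6.28%, 3.47 to 10.3%), at 61.6 per Mb beside 63.1 over all genes. The highest was in intron 8 of nhr-105 at 40.5, with 22.2 in replicate 1 and 15.6 in replicate 2. It was followed by nhr-19 at 32.6, nhr-88 at 26.8 and nhr-31 at 23.7. None of the 14 regions in receptor genes was on the reproducible list, which held 2.4% of all intronic regions. Homeobox genes had one in 6 of 63 (9.52%), led by ceh-23 at 24.8, and collagen and basement membrane genes in 5 of 78 (6.41%), led by rol-3, which entered the list by its name, at 33.8 beside the snoRNA gene C16D9.11. The highest in a col gene was 22.6, in col-78. Densities were lowest in these last lists, at 42.8 and 38.8 per Mb from 7 and 5 regions. Ribosomal protein genes had none, with 2 genes and 0.187 kb of eligible bases. The lists were described by these counts and not tested.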

How the data were processed

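ChIP-seq of eGFP-tagged NHR-237 was carried out on whole L2 larvae, and the authors deposited lists of regions (narrowPeak format). Per the file descriptions, the authors called regions on each library and on both together, and deposited the lists in 2 builds, of which ce11 (WBcel235) was used here. The signal of a region is the authors' value as deposited, on the scale of its own list. No source used here names the aligner, peak caller or IDR threshold. No read totals were used, so the depth is unknown.

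Summits were classed against Ensembl release 115 gene models, with sequence from the RefSeq WBcel235 assembly. Summits within 150 bp were matched between lists, noncoding genes and transcript starts counted within 250 bp, and motifs sought 100 bp each side. Rule-satisfying bases, and 201-bp windows tiled over them, gave the background. With 2 replicates of 1 group there was no contrast to test, and shares carry exact 95% binomial intervals. Calculations used Python 3.11.15, NumPy 2.4.6, pandas 2.3.3, SciPy 1.17.1 and matplotlib 3.10.9, and the classing, matching and motif search were tested on simulated data.

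The set of regions, lists and motifs were chosen with earlier results of these data known. Named regions were up to 25 intronic ones of highest signal on the reproducible list, those of the 5 hosts with most, up to 4 of highest signal per noncoding class and host list, and up to 10 near an internal transcript start.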

Additional observations from a re-analysis of the deposited data

How the results depend on the processing

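Of 59 alternatives other than motif windows, 46 stayed within the interval of the main value and 13 moved. The intronic share of pooled regions, 19.1%, was 23.2% for summits more than 500 bp from gene starts, 13.7% for more than 2000 bp, 14.9% when all transcript starts counted, and 18.1 to 19.2% in a single replicate's own highest regions. The share in first introns was 19.2% at 500 bp and 12.6% at 2000 bp. The share near internal transcript starts was 10.8% within 500 bp, and 0% when all transcript starts counted, which the rule then excludes. The share near small noncoding genes, 4%, was 2.68% when exons of all biotypes were left out, which removes summits inside those genes. The share on the reproducible list was 1.28% with its 175 highest regions. The share matched in both replicates, 8.89%, was 4.08% within 50 bp, 11.8% within 300 bp and 50% with all regions. Of 30 alternatives for motif shares 11 moved, and 9 of these came from the narrower window, which holds fewer bases. No value of the pooled signal or of the match in both replicates could be had with a replicate left out. No paired analysis was possible because there is 1 group. Read depth limits what the lists can show, and is unknown.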
